A study of Mus musculus with 26 samples.

Results

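Epithelium of the mouse proximal small intestine that had lost SMAD1, SMAD4 and SMAD5 was compared with epithelium that had lost SMAD1 and SMAD5, 30 days after the first injection. The members are the 3 libraries labelled SMAD1/4/5 iTKO (triple knockout) and the 2 labelled SMAD1/5 iDKO (double knockout), chosen by their labels, 5 of the 26 samples of the series. The 5 controls of the same deposited table, read beside them, fall into 2 libraries of the SMAD1/5 line, from mice given tamoxifen, and 3 of the SMAD1/4/5 line, from mice given oil. All mutants carried Villin-CreERT2, a Cre recombinase that is active in intestinal epithelium after tamoxifen, and were given tamoxifen on 4 consecutive days. Tamoxifen-treated controls lacked this Cre and oil-treated controls carried it, per the labels' protocols. The labels give no age. iDKO and iTKO animals came from different lines, so a difference between them can be one of line as well as of SMAD4, and the contrast alone cannot tell these apart.

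SMAD1 and SMAD5 are receptor-regulated SMADs that bone morphogenetic protein (BMP) receptors phosphorylate, and SMAD4 is the common partner with which they act on genes in the nucleus. SMAD4 is also the partner of SMAD2 and SMAD3, the receptor-regulated SMADs of the TGF-beta and activin arm. In the small intestine BMP signalling is strongest along the villus, where enterocytes change their gene programme as they move from crypt to tip. The comparison asks which transcripts depend on SMAD4 in epithelium that already lacks SMAD1 and SMAD5.

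Expression is given in FPKM (fragments per kilobase of exon, scaled to the fragment total of the library), and a difference as log2(FPKM + 0.5) of iTKO minus iDKO with its standard error, which understates changes of low genes. The spacing of low values gave an approximate depth of 13.0 to 18.05 megafragments per library, a rough guide since 46.4% to 51.0% of low values came out whole within 1%. Correlations of log2 values across genes were 0.961 to 0.980 between iDKO and iTKO libraries, 0.975 between the iDKO libraries and 0.979 to 0.983 among the iTKO libraries. Epithelial genes were high in every library, with Vil1 at 1988 to 3037 and Epcam at 1371 to 2318 FPKM, while the fibroblast collagen gene Col1a1 stayed at or under 0.725. Col1a2, another collagen gene, stood at 1.45 in iDKO 1 and at 0.0277 in iDKO 2. As list medians of log2 against the mean of controls, iDKO 1 and iDKO 2 stood at 0.74 and -0.35 for stromal, 0.27 and -0.64 for myeloid and 1.12 and -0.76 for B and plasma cell genes. The part of these cells in the results was not tested. By Xist and Ddx3y, iDKO 1 and iTKO 2 came from male and iDKO 2, iTKO 1 and iTKO 3 from female animals. iDKO 1 stood apart from iDKO 2 in many genes below, and values without it are given beside many of them. The labels do not say that each library is a separate animal, and p-values then measure only the spread between these samples.

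Smad4, the targeted gene that separates the groups, had 135 and 137 FPKM in iDKO, 35.3, 32.1 and 46.7 in iTKO and 128 to 163 in the controls. The iTKO libraries were thus all below every other library, with transcript remaining (log2 -1.85 ± 0.16, limma adjusted p = 4.5e-04). Smad1 stood at 28.4 and 27.1 in iDKO, 26.6, 32.5 and 40.5 in iTKO and 27.8 to 38.4 in controls. Smad5 stood at 26.9 and 31.8 in iDKO and 31.7, 30.5 and 32.1 in iTKO, above the 14.4 to 16.9 of controls. Against controls Smad5 was higher in iDKO (log2 0.86, limma adjusted p = 2.2e-04) and in iTKO (log2 0.96, limma adjusted p = 6.5e-05). Neither gene differed between iDKO and iTKO by the test (log2 0.24 ± 0.17 for Smad1 and log2 0.10 ± 0.10 for Smad5). A gene-level value includes exons outside a deleted part, so the levels of Smad1 and Smad5 do not check their deletion. Smad2 and Smad3, which encode the partners of SMAD4 in the TGF-beta and activin arm, did not pass either, with log2 -0.066 and 0.021.

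Loss of SMAD4 on top of SMAD1 and SMAD5 went with a small set of large falls and a smaller set of modest rises. Genes of purine salvage and breakdown (Ada, Nt5e, Slc28a2), the tight junction gene Cldn4, the BMP feedback inhibitor Smad6 and the TGF-beta feedback gene Pmepa1 fell by more than 2-fold, as did the basement membrane gene Lama3 and genes of gastric or injured epithelium (Anxa10, Krt7, Clu). Some absorptive enterocyte genes rose, among them the fructose and glucose transporter family member Slc2a7, the inositol transporter Slc5a11 and the peptidase Dpp4. Others fell, such as the brush border phosphatase Alpi, and of 30 brush border genes 1 rose and 1 fell. Of 11939 genes tested with limma, 91 passed at an adjusted p under 0.05 (0.762%), 26 higher (0.218%) and 65 lower (0.544%) in iTKO. The change exceeded 2-fold in 12 of the 26 and 49 of the 65, and the median log2 of all genes tested was -0.0024. At an unadjusted p under 0.05, 653 were higher (5.47%) and 713 lower (5.97%). The iDKO and iTKO libraries did not overlap in any of the 91, a separation that 26.8% of all genes tested also showed. For comparison, 18.7% of the same genes passed in iDKO against control (9.43% higher, 9.31% lower) and 18.1% in iTKO against control (9.13% higher, 8.95% lower).

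The calls rested unevenly on the libraries. With 1 iDKO library left out, the lone iDKO library is assumed to vary like the other groups, and fewer samples enter. A gene can then miss the threshold while its difference stays the same size, so a lost call does not by itself mean that the difference came from the library left out. Without iDKO 1, 16 of the 65 lower genes and 0 of the 26 higher genes passed, and 0 genes were called higher and 18 lower in all. Of the 91 genes, 86 were tested there and 86 kept their direction. Without iDKO 2 there were 151 higher and 156 lower, with 23 of the 26 and 54 of the 65 among them. Without iTKO 1, iTKO 2 or iTKO 3 the counts were 8 and 42, 8 and 29, and 3 and 29. Without control 2 or control 5 there were 16 higher genes. The sign of every one of the 91 was the same in all 24 alternatives in which it was tested. In most alternatives this was fixed in advance, since the iDKO and iTKO libraries did not overlap in any of the 91. That holds where a library was left out or the pseudocount, filter or variance model changed. It also holds for the 5 compared libraries alone and for controls split by line. Only the scaling, block, sex and within-line settings could have changed a sign.

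Among BMP response genes, Smad6, which encodes an inhibitory SMAD that the pathway induces against itself, was lower still once SMAD4 was lost. It stood at 13.2, 14.9, 25.6, 21.0 and 20.6 FPKM in the 5 controls, at 5.48 and 3.90 in iDKO and at 0.804, 1.32 and 0.360 in iTKO. The 3 groups did not overlap, with controls highest and iTKO lowest (log2 -2.02 ± 0.33 for iTKO minus iDKO, limma adjusted p = 0.0224). Without iDKO 1 the value was -1.79 and no longer passed (adjusted p = 0.262). In iDKO against control the difference was log2 -1.89 (adjusted p = 0.00187), and in iTKO against control -3.91 (adjusted p = 1.4e-05). The promoter of Smad6 is shown because, of the promoters of genes called in either direction, it alone holds the palindrome GTCTAGAC, a known SMAD3 and SMAD4 binding sequence. The window runs from 250 bases before to 50 bases after the start of the RefSeq transcript in build GRCm38.p6, at chr9:64022010-64022309, minus strand, printed 5′ to 3′ along the gene, with the palindrome in capitals.
Smad6: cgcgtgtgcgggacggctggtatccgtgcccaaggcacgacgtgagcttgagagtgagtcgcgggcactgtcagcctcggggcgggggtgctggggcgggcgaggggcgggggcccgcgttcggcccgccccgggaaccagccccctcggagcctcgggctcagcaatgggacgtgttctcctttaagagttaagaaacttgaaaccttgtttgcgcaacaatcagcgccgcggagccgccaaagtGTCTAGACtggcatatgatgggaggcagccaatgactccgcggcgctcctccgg
The same palindrome lies in 29 of the 9323 promoters of tested genes in the RefSeq table (0.311%).

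The Id genes, direct BMP targets that encode inhibitors of basic helix-loop-helix factors, were already low in iDKO. Id2 stood at 16.2 to 22.6 FPKM in controls, 4.11 and 3.36 in iDKO and 1.55, 2.26 and 1.88 in iTKO. Its iTKO libraries were all below the iDKO libraries, but the difference did not pass (log2 -0.82 ± 0.17, limma adjusted p = 0.0674). Id1 stood at 21.4 and 7.70 in iDKO and 5.02, 6.79 and 7.61 in iTKO, against 50.7 to 56.7 in controls. Its higher iDKO value came from iDKO 1, and the difference was -0.96 with both libraries and -0.25 without iDKO 1. Id3 stood at 25.0 and 12.3 in iDKO and 5.501, 10.5 and 17.1 in iTKO, with overlapping groups (log2 -0.78, -0.29 without iDKO 1). Smad7, the other inhibitory SMAD, stood at 27.8 and 22.8 in iDKO and 16.8, 16.2 and 18.8 in iTKO, without overlap and short of the threshold (log2 -0.53 ± 0.15, adjusted p = 0.153). Tbx3, the villus T-box factor, had 19.6 and 15.9 FPKM in iDKO and 14.1, 11.2 and 18.9 in iTKO (log2 -0.28, -0.14 without iDKO 1), Hes1 had log2 -0.18 (0.00091 without iDKO 1) and Bambi, a decoy receptor, log2 0.16. Of 8 BMP response genes tested, 0 rose, 1 fell and 7 did not pass, with a median log2 of -0.66 (-0.27 without iDKO 1). None of 14 BMP ligand, receptor and antagonist genes passed, with 2 higher and 1 lower at an unadjusted p under 0.05, and a median of 0.06 (-0.031 without iDKO 1).

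In the TGF-beta and activin arm the clearest fall was in Pmepa1, which encodes a membrane protein that TGF-beta induces and that binds receptor-regulated SMADs to hold the pathway back. Pmepa1 stood at 7.21, 7.06, 8.84, 8.27 and 8.96 FPKM in the 5 controls, 88.5 and 68.2 in iDKO and 14.3, 17.8 and 16.1 in iTKO. Every iDKO library was far above every other library, and the iTKO libraries lay between iDKO and controls (log2 -2.24 ± 0.15, limma adjusted p = 1.3e-04). It was 1 of the genes that passed in each of the 24 alternatives, and without iDKO 1 the value was -2.06 (adjusted p = 0.00508). Against controls the difference was 3.20 in iDKO and 0.95 in iTKO, both past the threshold. Itgb6, the integrin subunit that helps release latent TGF-beta, stood at 19.4 and 19.2 in iDKO and 8.62, 8.34 and 7.53 in iTKO, against 8.52 to 12.2 in controls. The iTKO values lay below the iDKO values and at the low end of the controls or under it (log2 -1.19 ± 0.16, adjusted p = 0.00726; -1.19 and adjusted p = 0.0987 without iDKO 1).

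Tgfbi, a secreted matrix protein gene named for its induction by TGF-beta in other cells, went the other way. It stood at 42.9 and 71.7 FPKM in iDKO and 126, 134 and 132 in iTKO, against 135 to 189.5 in controls. iDKO was low and iTKO lay just under the controls (log2 1.23 ± 0.20, limma adjusted p = 0.0221), and without iDKO 1 the value was 0.86 (adjusted p = 0.201). The other listed members did not pass. Those nearest the threshold were Ldlrad4 (5.42 and 5.45 against 2.54, 2.24 and 1.86 FPKM, log2 -1.14, adjusted p = 0.0725), a feedback inhibitor, and Bhlhe40 (128 and 119 against 74.6, 88.4 and 77.1 FPKM, log2 -0.63, adjusted p = 0.0731), a transcription factor that TGF-beta induces. Klf10 had log2 -0.84 (-0.53 without iDKO 1), Skil, which encodes a SMAD corepressor, -0.36, and Tgif1 -0.0076 (0.15 without iDKO 1). Of 17 TGF-beta and activin response genes tested, 1 rose, 1 fell and 15 did not pass, with 8 lower and 1 higher at an unadjusted p under 0.05 and a median log2 of -0.32 (-0.25 without iDKO 1). The plot of lower genes by library shows Smad4, Smad6, Pmepa1 and 9 genes described after it.

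**Figure D1:**
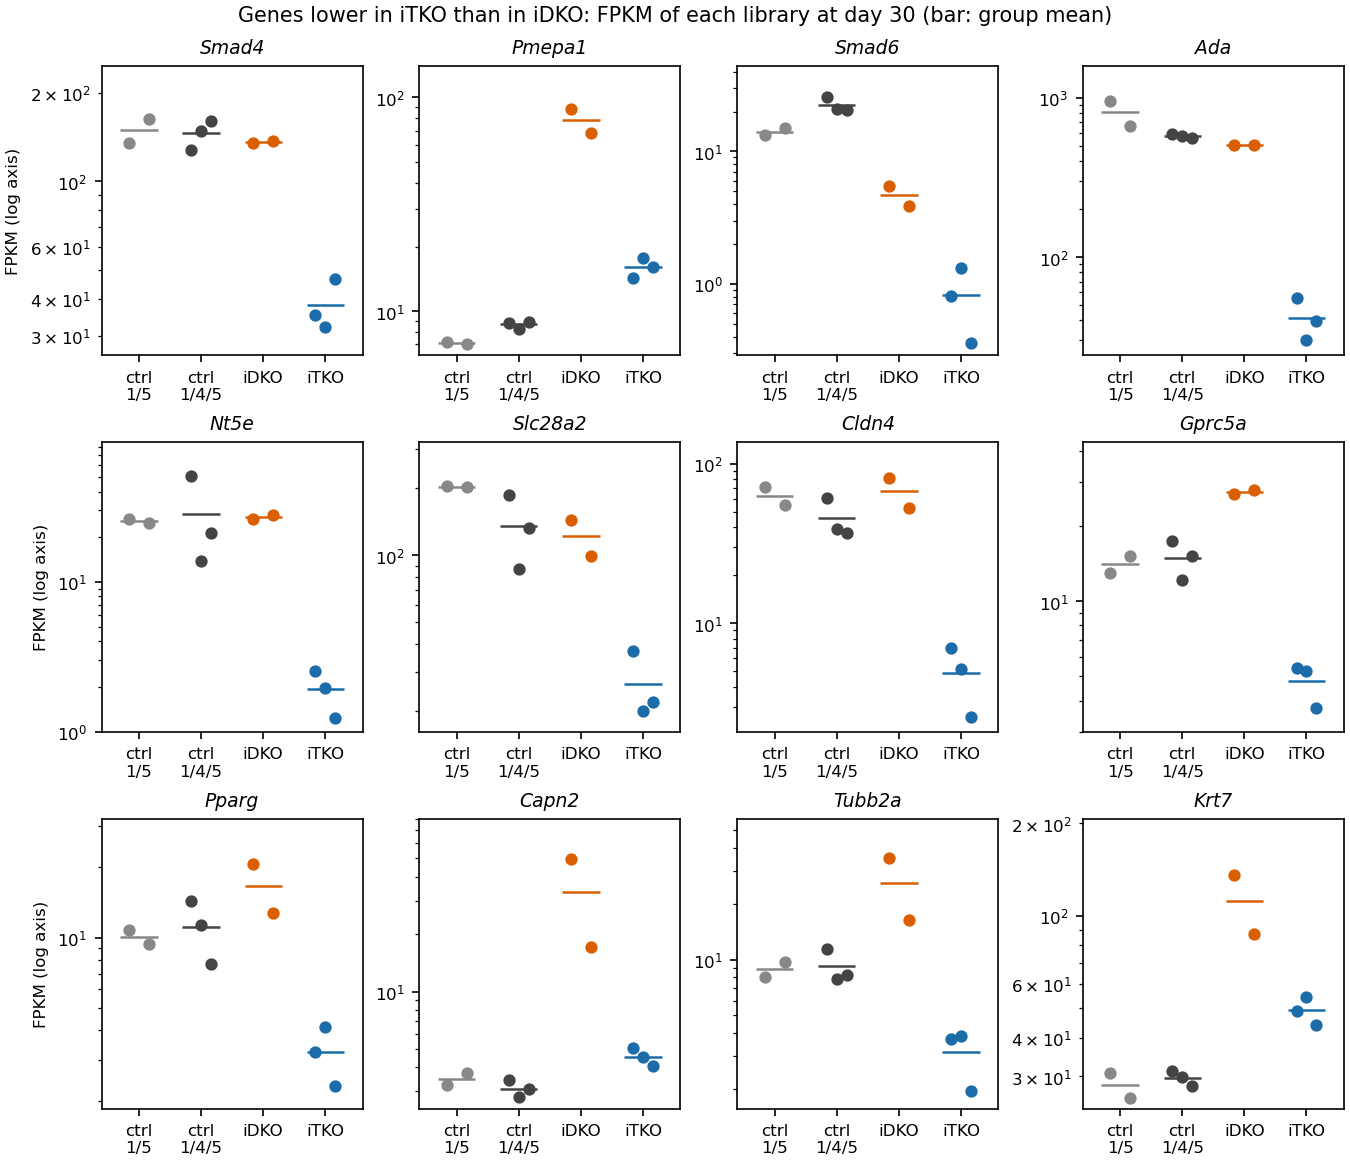
FPKM on log axes in each library at day 30 for 12 genes that were lower in iTKO than in iDKO. Points are libraries and bars are group means, for the 2 SMAD1/5-line controls (ctrl 1/5), the 3 SMAD1/4/5-line controls (ctrl 1/4/5), 2 iDKO and 3 iTKO libraries. The iTKO points lie below both iDKO points in each panel, and for Smad4, Smad6, Ada, Nt5e, Slc28a2, Cldn4, Gprc5a, Pparg and Tubb2a they also lie below every control.

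A purine group fell in iTKO from a level in iDKO that did not differ from controls by the test. Ada (adenosine deaminase, which turns adenosine into inosine) stood at 952, 663, 589.8, 571 and 560.4 FPKM in the 5 controls, 508 and 502 in iDKO and 55.2, 30.1 and 39.6 in iTKO. The iDKO libraries lay just under the lowest control and the iTKO libraries far under both (log2 -3.63 ± 0.26, limma adjusted p = 1.3e-04), and the gene passed in each of the 24 alternatives. Nt5e, which encodes the CD73 ectoenzyme that makes adenosine from AMP, stood at 26.3, 24.8, 50.6, 13.8 and 21.3 in controls, 26.4 and 27.8 in iDKO and 2.53, 1.96 and 1.24 in iTKO. The iDKO values fell within the range of controls and the iTKO values were far under it (log2 -3.55 ± 0.41, adjusted p = 0.00374). Slc28a2, a sodium-coupled purine nucleoside transporter, stood at 86.5 to 204 in controls, 144 and 99.8 in iDKO and 37.2, 20.1 and 21.9 in iTKO, in the same order (log2 -2.22 ± 0.37, adjusted p = 0.0252).

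These calls differ in how far they rest on 1 library. Without iDKO 1 Ada (-3.62, limma adjusted p = 0.00508) and Nt5e (-3.59, adjusted p = 0.0486) passed, and Slc28a2 did not (-1.95, adjusted p = 0.274). Against controls the log2 difference in iDKO was -0.37 for Ada, 0.11 for Nt5e and -0.37 for Slc28a2, none of them past the threshold. In iTKO it was -4.00, -3.44 and -2.58, all past it (adjusted p = 2.6e-06, 1.3e-04 and 3.5e-04). Of 12 purine catabolism genes tested, 0 rose, 3 fell and 9 did not pass, with a median log2 of -0.10, so the list as a whole did not shift with its 3 members. In bulk RNA, fewer cells of a type and less RNA per cell cannot be told apart. The promoters of the 3 genes are shown because they fell together. The windows are those of RefSeq in GRCm38.p6, at chr2:163750190-163750489, minus strand for Ada, chr9:88327359-88327658, plus strand for Nt5e and chr2:122426185-122426484, plus strand for Slc28a2. Capitals mark the SMAD box CAGAC on either strand (GTCTG on the other) and, in Ada, the BMP SMAD element GGCGCC.
Ada: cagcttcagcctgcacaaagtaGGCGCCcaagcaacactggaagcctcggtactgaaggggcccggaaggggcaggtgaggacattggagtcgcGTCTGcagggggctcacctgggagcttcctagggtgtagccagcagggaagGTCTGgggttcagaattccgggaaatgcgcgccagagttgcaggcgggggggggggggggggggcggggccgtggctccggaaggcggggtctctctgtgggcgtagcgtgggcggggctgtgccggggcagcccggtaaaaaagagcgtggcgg
Nt5e: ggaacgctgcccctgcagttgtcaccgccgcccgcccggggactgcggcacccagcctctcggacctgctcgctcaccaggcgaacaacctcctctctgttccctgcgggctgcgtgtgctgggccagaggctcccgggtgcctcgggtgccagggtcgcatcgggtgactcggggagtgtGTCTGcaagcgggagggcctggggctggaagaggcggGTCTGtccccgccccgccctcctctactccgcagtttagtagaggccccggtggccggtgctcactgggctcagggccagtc
Slc28a2: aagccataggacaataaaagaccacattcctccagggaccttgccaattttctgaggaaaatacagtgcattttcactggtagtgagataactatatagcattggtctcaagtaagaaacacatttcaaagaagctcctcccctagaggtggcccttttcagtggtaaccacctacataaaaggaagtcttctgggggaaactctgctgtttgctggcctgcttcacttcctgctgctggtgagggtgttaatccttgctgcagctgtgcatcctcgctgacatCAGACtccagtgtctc
The SMAD box occurred 2, 2 and 1 times in them, and at least once in 52.4% of the promoters of all tested genes.

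Ada, Nt5e and Slc28a2 are also genes of the villus tip, the last stage of an enterocyte, for which a list of 21 genes was tested. Of these, 0 rose, 3 fell (the same 3) and 18 did not pass, with 10 lower and 0 higher at an unadjusted p under 0.05. The list's median log2 was -0.49 (-0.50 without iDKO 1 and -0.70 without iDKO 2). As the median over the list against the mean of the controls, the iDKO libraries stood at -0.13 and -0.054 and the iTKO libraries at -0.44, -0.55 and -0.46, below all iDKO and control libraries. Alpi, the intestinal alkaline phosphatase of the brush border, stood at 450.0 and 472 FPKM in iDKO, within the 427 to 591 of controls, and at 274, 204 and 230.2 in iTKO, below both (log2 -0.97 ± 0.16, limma adjusted p = 0.0189). Pparg, a nuclear receptor of lipid handling, stood at 20.6 and 12.7 in iDKO, 3.24, 4.15 and 2.31 in iTKO and 7.73 to 14.3 in controls (log2 -2.19 ± 0.28, adjusted p = 0.00726). Neither passed without iDKO 1, where Alpi had -1.007 (adjusted p = 0.177) and Pparg -1.85 (adjusted p = 0.0996). Of 34 villus transcription factor genes tested, Pparg was the 1 that fell and 0 rose, with a median of 0.091 (0.047 without iDKO 1).

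Other genes were near control level in iDKO and below it in iTKO. Cldn4, a claudin of tight junctions, stood at 36.8 to 70.9 FPKM in controls, 81.6 and 52.5 in iDKO and 6.95, 5.16 and 2.59 in iTKO. It was low in all 3 iTKO libraries and in no other (log2 -3.70 ± 0.37, limma adjusted p = 0.00159; -3.39 and adjusted p = 0.0269 without iDKO 1). It was the 1 of 25 claudin and junction genes to pass, with a median log2 of -0.20 over the list and 10 lower and 1 higher at an unadjusted p under 0.05. Mcoln3, a cation channel of endosomes and lysosomes, stood at 5.22 and 10.6 in iDKO and 1.56, 0.186 and 0.542 in iTKO, against 3.64 to 7.20 in controls (log2 -2.81 ± 0.44, adjusted p = 0.0189), and did not pass without iDKO 1 (-3.29, adjusted p = 0.068).

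The next genes, also below controls in iTKO, lie outside the naming rule and were chosen after their values were seen. Gprc5a, an orphan receptor induced by retinoic acid, stood at 12.2 to 17.4 FPKM in controls, 26.8 and 28.0 in iDKO and 5.42, 5.24 and 3.74 in iTKO. It was above controls in iDKO, below them in iTKO, and passed in each of the 24 alternatives (log2 -2.41 ± 0.18, limma adjusted p = 1.3e-04). Slc23a4, a member of the nucleobase and ascorbate transporter family, stood at 76.3 to 133 in controls, 100.04 and 140.1 in iDKO and 30.0, 18.9 and 22.004 in iTKO (log2 -2.33 ± 0.25, adjusted p = 0.00253; -2.57 and adjusted p = 0.0143 without iDKO 1). Smaller falls from near control level were seen in Tom1, an endosomal sorting gene (log2 -0.94), Pgm2, a phosphopentomutase that acts on the ribose phosphate freed from nucleosides (-0.75), and Plekhh3 (-0.71), none of which passed without iDKO 1 (-0.83, -0.61 and -0.72). Ly6m was low in iDKO (27.8 and 51.0 FPKM against 67.4 to 107 in controls) and lower in iTKO (16.04, 10.1 and 8.15; log2 -1.73, adjusted p = 0.0366), and reads of its close relatives in the Ly6 family may be shared with it. Without iDKO 1 its value was -2.16 (adjusted p = 0.068).

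Another group was high in iDKO and nearer to control level in iTKO. Capn2, a calcium-dependent protease, stood at 2.81 to 3.73 FPKM in controls, 49.7 and 17.0 in iDKO and 5.09, 4.56 and 4.05 in iTKO (log2 -2.55 ± 0.33, limma adjusted p = 0.00726). Its iTKO libraries lay between controls and iDKO. Lama3, a gene of the epithelial basement membrane, stood at 2.47 to 9.88 in controls, 29.4 and 15.6 in iDKO and 3.76, 1.87 and 1.63 in iTKO, where 2 libraries were under all controls (log2 -2.98 ± 0.49, adjusted p = 0.0224). Without iDKO 1, Capn2 passed (-1.80, adjusted p = 0.011) and Lama3 did not (-2.54, adjusted p = 0.269). The 2 iDKO libraries differed widely in both genes, with iDKO 1 the higher.

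Genes of gastric, squamous or injured epithelium had the same shape. Krt7, a keratin of simple ductal and gastric epithelia, stood at 25.5 to 31.1 FPKM in controls, 136 and 87.0 in iDKO and 48.8, 54.4 and 44.1 in iTKO (log2 -1.14 ± 0.17, limma adjusted p = 0.0154). Anxa10, an annexin typical of stomach, was at or under 0.135 in all controls, at 78.7 and 10.4 in iDKO and at 1.498, 3.45 and 2.91 in iTKO. It was thus present in both mutants, and on the log2 scale its iDKO libraries lay farther from each other than iDKO 2 did from iTKO (log2 -3.29 ± 0.63, adjusted p = 0.0437). Clu, the secreted chaperone clusterin that marks revival stem cells after injury, stood at 1.03 to 2.65 in controls, 34.3 and 14.4 in iDKO and 4.42, 3.93 and 2.33 in iTKO (log2 -2.53 ± 0.40, adjusted p = 0.0184). None of the 3 passed without iDKO 1, with log2 -0.82 (adjusted p = 0.107), -1.86 (adjusted p = 0.203) and -1.91 (adjusted p = 0.217). Of 12 keratin and gastric or squamous genes, 0 rose, 2 fell and 10 did not pass, with a median of -1.16 (-0.55 without iDKO 1). Of 13 regenerative or fetal-like genes, 0 rose, 1 fell and 12 did not pass, with a median of -0.45 (-0.12 without iDKO 1).

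Among other genes high in iDKO, Tubb2a, a beta-tubulin, stood at 35.5 and 16.3 FPKM there, at 3.70, 3.85 and 1.95 in iTKO and at 7.85 to 11.4 in controls. Its iTKO libraries were below every control (log2 -2.79 ± 0.32, limma adjusted p = 0.00374; -2.24 and adjusted p = 0.0317 without iDKO 1). Bdh2, a cytosolic hydroxybutyrate dehydrogenase, stood at 7.19 and 3.90 in iDKO and 0.363, 0.0418 and 0 in iTKO, against 0.479 to 0.937 in controls (log2 -3.24 ± 0.33, adjusted p = 0.00159). With either iDKO library left out it was not tested, since fewer than 2 libraries then reached 1 FPKM. Bdh2 passed the filter only through the iDKO libraries, in which it was high, so its adjusted p adds no support.

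The next genes were again chosen after their values were seen. Acat1, the mitochondrial acetyl-CoA acetyltransferase of ketone and isoleucine metabolism, stood at 348 and 404 FPKM in iDKO, 189, 151 and 157 in iTKO and 127 to 156 in controls (log2 -1.18 ± 0.13, limma adjusted p = 0.00255). Paox, a polyamine oxidase, had 41.8 and 32.4 in iDKO and 12.3, 11.3 and 14.0 in iTKO against 8.75 to 11.4 in controls (log2 -1.52 ± 0.15, adjusted p = 0.00159), and Tlcd2, a membrane lipid regulator, 126 and 151 in iDKO and 62.5, 55.0 and 53.0 in iTKO against 53.2 to 67.1 in controls (log2 -1.28 ± 0.13, adjusted p = 0.00187). In all 3 the iTKO libraries overlapped the controls while both iDKO libraries were high. Without iDKO 1 they still passed, at -1.29, -1.34 and -1.41 (adjusted p = 0.0165, 0.0269 and 0.0143). Fcgrt, the neonatal Fc receptor that carries immunoglobulin G across epithelium, stood at 605 and 483 in iDKO and 243, 189.9 and 237 in iTKO against 87.3 to 121 in controls, and remained above controls in iTKO (log2 -1.28 ± 0.17, adjusted p = 0.00726; -1.12 and adjusted p = 0.1 without iDKO 1). Tnfrsf12a, the receptor of the cytokine TWEAK, had 87.5 and 41.1 in iDKO and 17.2, 18.7 and 15.1 in iTKO against 7.62 to 12.0 in controls (log2 -1.79), and Runx1, a transcription factor of the Runt family, 11.6 and 8.38 in iDKO and 2.06, 2.38 and 4.04 in iTKO against 1.13 to 2.07 in controls (log2 -1.68). Neither of these passed without iDKO 1 (-1.25 and -1.46).

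The genes named for their rise include transporters and metabolic enzymes that were low in iDKO and nearer to control level in iTKO. Unc93a2, a solute-carrier-like membrane protein gene, had the largest rise, from 7.36 and 12.1 FPKM in iDKO to 29.5, 21.2 and 36.1 in iTKO, against 62.0 to 95.2 in controls (log2 1.53 ± 0.26, limma adjusted p = 0.0252). Its reads may be shared with its close copy Unc93a. Slc5a11, a sodium-coupled inositol transporter, stood at 22.9 and 46.8 in iDKO, 97.0, 76.3 and 80.0 in iTKO and 129.7 to 201 in controls (log2 1.34 ± 0.26, adjusted p = 0.0444). Slc2a7, a facilitative hexose transporter, stood at 16.4 and 21.2 in iDKO, 47.0, 37.6 and 51.7 in iTKO and 83.4 to 141 in controls (log2 1.25 ± 0.21, adjusted p = 0.0224). In these 3 genes iTKO lay between iDKO and controls, overlapping neither.

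Hsd17b6, a hydroxysteroid and retinol dehydrogenase, stood at 64.9 and 75.2 FPKM in iDKO and 166, 169.9 and 166 in iTKO, against 106 to 166 in controls. Its iTKO libraries were at the top of the control range (log2 1.26 ± 0.16, limma adjusted p = 0.00726). Abat, which breaks down GABA, stood at 17.1 and 23.6 in iDKO and 46.6, 50.2 and 38.9 in iTKO against 61.5 to 77.9 in controls (log2 1.14 ± 0.15, adjusted p = 0.00861), and Afp, the alpha-fetoprotein gene, at 13.5 and 12.6 in iDKO and 32.3, 32.2 and 27.4 in iTKO against 29.9 to 43.7 in controls (log2 1.198 ± 0.17, adjusted p = 0.0117). For Afp the iTKO libraries overlapped the controls, and for Abat they lay below them. Eci3, a peroxisomal enoyl-CoA isomerase with close relatives that may share reads, had log2 1.10, Arl4d, a small GTPase of the ARF family, 1.10, and Ugt2a3, a glucuronosyltransferase, 1.08. Acaa1a, the peroxisomal thiolase, stood at 120.4 and 159.9 in iDKO and 227, 212 and 221 in iTKO against 317 to 369 in controls (log2 0.66 ± 0.12, adjusted p = 0.0366). Dpp4, the brush border dipeptidyl peptidase, stood at 295 and 363 in iDKO and 612, 532 and 577 in iTKO against 765 to 1021 in controls (log2 0.81 ± 0.15, adjusted p = 0.0366).

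None of the rises passed without iDKO 1. In that setting Unc93a2 had log2 1.19, Slc5a11 0.84, Hsd17b6 1.150, Slc2a7 1.07, Abat 0.92, Afp 1.24, Eci3 0.85, Arl4d 1.06, Ugt2a3 0.84, Acaa1a 0.46 and Dpp4 0.66, with limma adjusted p from 0.10 for Hsd17b6 to 0.385 for Ugt2a3. In a few genes iTKO stood above both other groups. Slc39a8, a zinc, manganese and iron importer chosen after its values were seen, stood at 3.94 to 5.63 FPKM in controls, 6.19 and 6.70 in iDKO and 12.2, 15.4 and 14.0 in iTKO (log2 1.04 ± 0.16, adjusted p = 0.0158). Rnf149, a ubiquitin ligase gene chosen likewise, stood at 33.3 to 40.9 in controls, 33.7 and 44.7 in iDKO and 66.6, 62.7 and 68.0 in iTKO (log2 0.75, adjusted p = 0.0284). At the other end Aspa, which encodes aspartoacylase, rose from 12.4 and 13.3 in iDKO to 24.8, 27.2 and 25.4 in iTKO while controls stood at 84.8 to 124, so iTKO remained far nearer to iDKO (log2 0.98, adjusted p = 0.0177). Without iDKO 1 these 3 did not pass (0.99, 0.55 and 0.93). The plot of higher genes by library shows 8 of the risers.

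**Figure D2:**
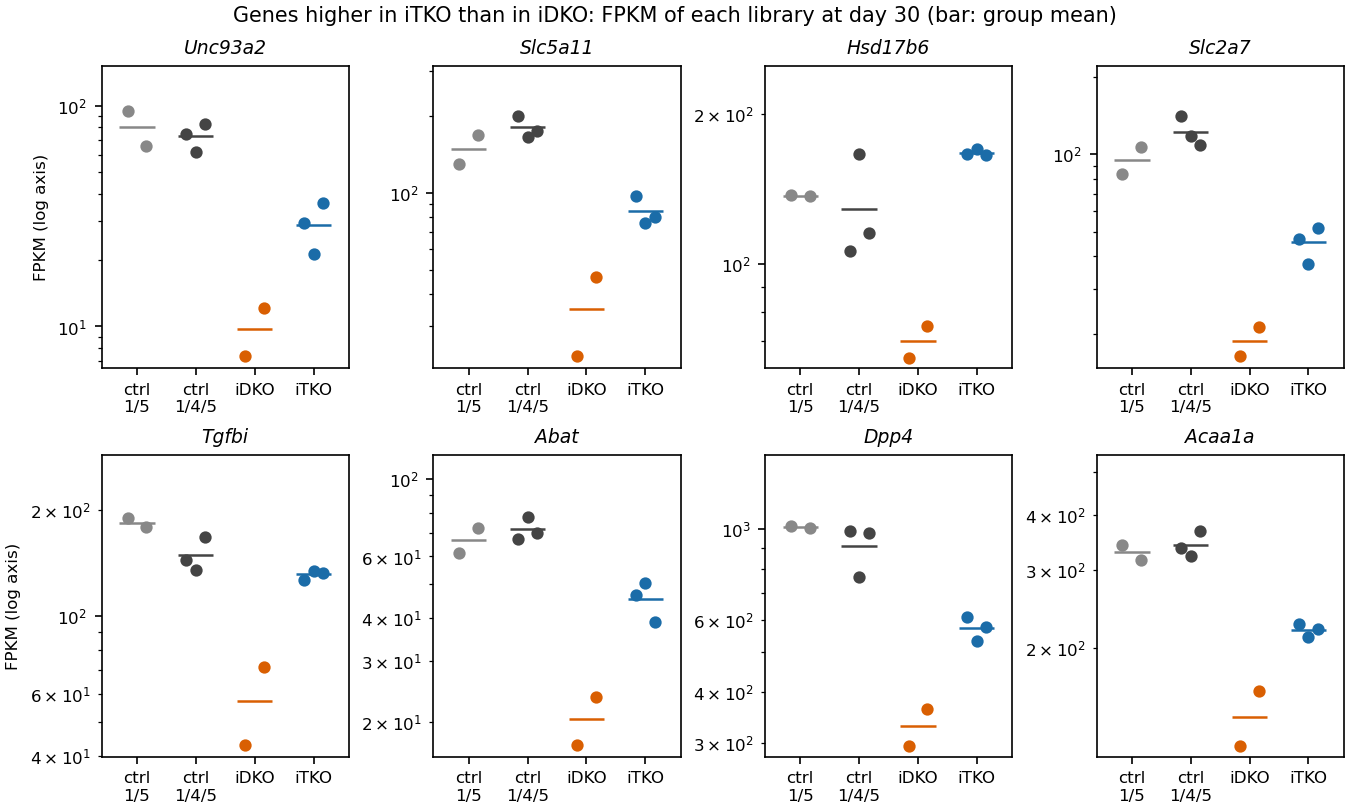
FPKM on log axes in each library at day 30 for 8 genes that were higher in iTKO than in iDKO. Points are libraries and bars are group means, for 2 SMAD1/5-line controls, 3 SMAD1/4/5-line controls, 2 iDKO and 3 iTKO libraries. iDKO is lowest in each panel, with iDKO 1 under iDKO 2, and iTKO lies between iDKO and controls except in Hsd17b6, where it reaches the highest control.

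Across nutrient handling lists few single genes passed. Of 20 carbohydrate digestion and transport genes, 2 rose (Slc2a7 and Slc5a11) and 0 fell, with 8 higher and 1 lower at an unadjusted p under 0.05 and a median log2 of 0.43 (0.16 without iDKO 1). Among the amino acid and peptide transporters 0 of 18 passed, with 9 higher and 0 lower at an unadjusted p under 0.05 and a median of 0.41 (0.16 without iDKO 1). As list medians against the mean of controls, amino acid transport stood at -1.47 and -0.86 in iDKO and -0.59, -0.62 and -0.55 in iTKO. Slc3a2, the heavy chain of amino acid exchangers, stood at 214 and 273 FPKM in iDKO and 326, 332 and 310.5 in iTKO (log2 0.42, limma adjusted p = 0.262; 0.24 without iDKO 1). Of 30 brush border genes 1 rose (Dpp4) and 1 fell (Alpi), with a median of 0.13, which was -0.013 without iDKO 1 and 0.31 without iDKO 2. Of 32 fatty acid oxidation and ketogenesis genes 1 rose (Acaa1a) and 0 fell, with a median of 0.048 (0.17 without iDKO 2). Of 29 lipid absorption genes 0 passed, and their median of -0.067 became -0.16 without iDKO 1 and 0.16 without iDKO 2, so its sign depends on the library.

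Cholesterol synthesis genes leaned the other way. Of 25 tested, 0 passed, 12 were lower and 0 higher at an unadjusted p under 0.05, and the median log2 was -0.61 (-0.27 without iDKO 1). As list medians against the mean of controls, iDKO stood at 1.26 and 0.72 and iTKO at 0.39, 0.71 and 0.028, so that the groups did not overlap but iTKO 2 came close to iDKO 2. Cyp51, the lanosterol demethylase, stood at 194 and 115 FPKM in iDKO and 79.9, 97.2 and 52.9 in iTKO against 21.1 to 44.9 in controls (log2 -1.0 ± 0.34, limma adjusted p = 0.264; -0.62 without iDKO 1). Of the 25 members 24 had a negative log2, all read in the same 5 libraries. Elovl6, a fatty acid elongase, had log2 -0.24, and 0 of 15 fatty acid synthesis genes passed.

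Proliferation and stem cell lists did not differ by single genes. Of 31 cell cycle genes 0 passed, with a median log2 of -0.20 (-0.077 without iDKO 1), and Pcna, the replication clamp, stood at 191 and 148 FPKM in iDKO and 126, 133 and 112 in iTKO (log2 -0.45, limma adjusted p = 0.172; -0.26 without iDKO 1). Of 21 stem cell genes 0 passed, with 6 lower and 1 higher at an unadjusted p under 0.05 and a median of -0.29. Olfm4, a stem cell marker, stood at 315 and 289.7 in iDKO and 271, 293 and 189.6 in iTKO (log2 -0.29). Of 32 interferon response genes 0 passed, and the list shows how far the iDKO libraries differ from each other, with list medians of 1.65 and 0.21 against 0.91, 1.34 and 1.06 in iTKO. Its difference was 0.17 with both iDKO libraries, 0.76 without iDKO 1 and -0.44 without iDKO 2, so it has no direction that does not depend on the library. The plot of list medians sets these groups side by side.

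**Figure D3:**
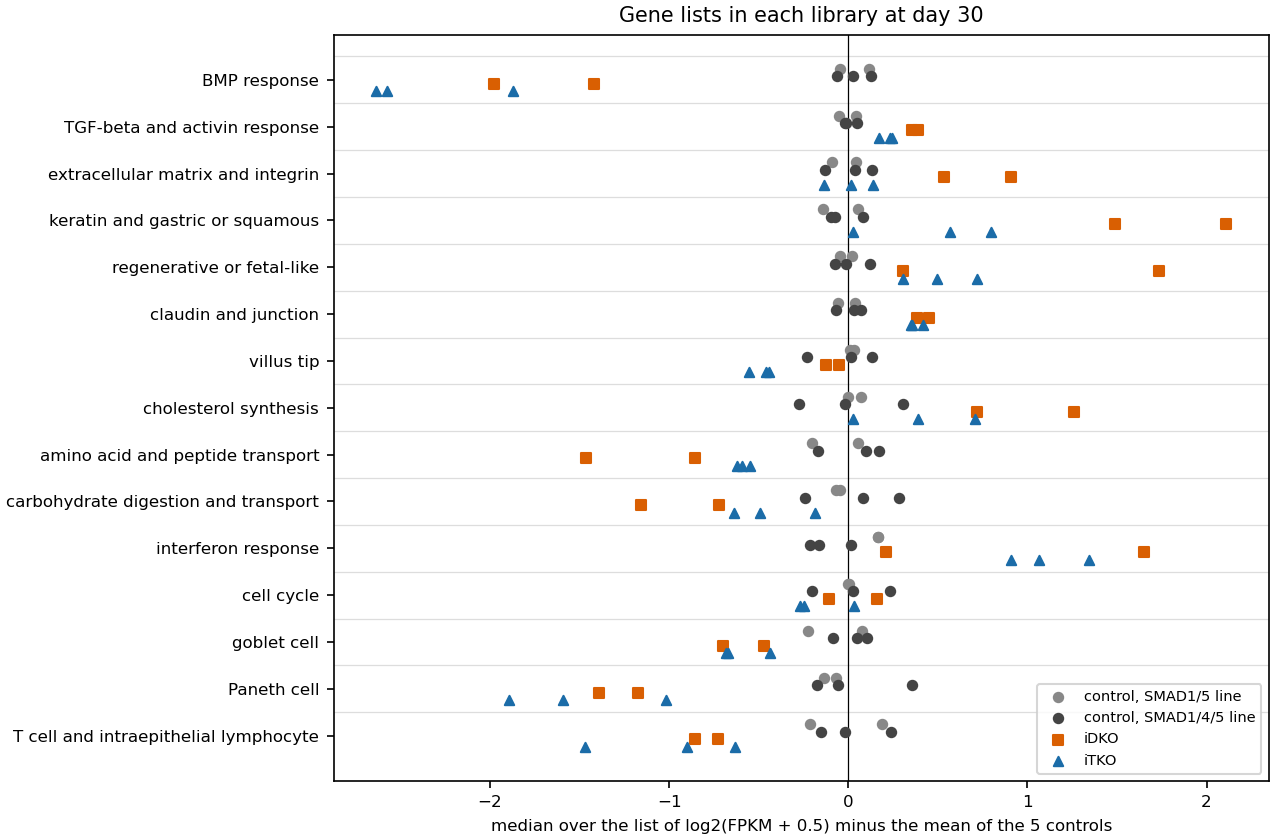
Medians over gene lists of log2(FPKM + 0.5) minus the mean of the 5 controls, for each of the 10 libraries at day 30. Squares are iDKO, triangles iTKO and circles controls by line. iTKO triangles stand below both iDKO squares in the villus tip list and between controls and iDKO in the amino acid transport list, while the iDKO squares lie on either side of the iTKO triangles in the interferon list.

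Markers of other cell types did not separate the groups by single genes. Of 19 goblet, 24 Paneth, 29 enteroendocrine, 19 tuft and 21 T cell or intraepithelial lymphocyte genes, 0 passed in either direction, with medians of -0.0015, -0.20, -0.012, -0.12 and -0.19. Without iDKO 1 these medians were 0.19, -0.15, 0.18, -0.064 and -0.091, so the signs for goblet and enteroendocrine genes depend on the library. The summed level of the T cell list was 195.7 and 151.4 FPKM in iDKO and 108.2 to 168.2 in iTKO, against 287.5 to 429.5 in controls, and that of the Paneth list 10920.0 and 11100.0 in iDKO and 6682 to 13100.0 in iTKO. The part of these cells in the results above was not tested.

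The largest fall of all was in Ctrb1, a chymotrypsinogen gene of pancreatic acinar cells. It stood at 0 to 0.234 FPKM in controls, 64.5 and 22.4 in iDKO and 0.479, 0.147 and 0.143 in iTKO. It exceeded 1 FPKM in the iDKO libraries alone, and iTKO overlapped the controls (log2 -5.70 ± 0.41, limma adjusted p = 1.3e-04). With either iDKO library left out, fewer than 2 libraries reached 1 FPKM and it was not tested. Ctrb1 passed the filter only through the iDKO libraries, so its adjusted p adds no support. Of the 14 acinar genes listed, 5 were in the table and 4 were tested. Cel was at or under 0.298 in all 10 libraries, Cela1 stood at 17.4 and 16.7 in iDKO and 8.84 to 15.6 in iTKO, and Clps at 45.2 and 40.05 in iDKO and 25.2 to 60.2 in iTKO, against 108 to 198 in controls. The summed acinar list was 128.0 and 81.1 in iDKO, 35.5 to 71.3 in iTKO and 115.1 to 211.1 in controls, and the part of pancreatic RNA in the fall of Ctrb1 was not tested.

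Since each mutant has controls of its own line, the difference was also taken within lines, as iTKO minus SMAD1/4/5-line controls less iDKO minus SMAD1/5-line controls. With limma, 0 genes were higher and 7 lower (0.0586%), with 395 higher and 491 lower at an unadjusted p under 0.05. The 7 were Smad4 (-1.81 ± 0.23, adjusted p = 0.0301), Pmepa1 (-2.51 ± 0.19, adjusted p = 0.00222), Ada (-3.16 ± 0.32, adjusted p = 0.0104), Gprc5a (-2.48 ± 0.26, adjusted p = 0.0104), Ctrb1 (-5.76 ± 0.61, adjusted p = 0.0104), Tlcd2 (-1.47 ± 0.18, adjusted p = 0.0264) and Gm19680, a predicted gene (-1.98 ± 0.24, adjusted p = 0.0264). All 7 were among the 65 genes above, and Ctrb1 passed the filter only through the iDKO libraries, in which it was high. Values of the same size that missed the threshold were found for Nt5e (-3.50, adjusted p = 0.106), Cldn4 (-3.21, adjusted p = 0.0723), Smad6 (-2.66, adjusted p = 0.0569) and Hsd17b6 (1.37, adjusted p = 0.099). The controls of the 2 lines, which also differ in treatment, differed in 2 of 11939 genes (0.0168%), both lower in the SMAD1/4/5 line, with 629 at an unadjusted p under 0.05. The within-line contrast has a larger standard error because it adds the spread of the 2 sets of controls.

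The same genes were read in 2 other sets of animals, measured in separately normalised tables. In the SMAD4 table, SMAD4 alone was deleted and epithelium was taken at day 6 (2 tamoxifen-treated iKO libraries against 2 oil-treated controls), where 156 of 12202 genes were higher (1.28%) and 261 lower (2.14%), 3.42% in all. Smad4 itself stood at 7.19 and 5.11 FPKM in the iKO libraries and 24.9 and 22.9 in their controls. Ada stood at 161 and 176 FPKM in the iKO libraries and 551 and 656 in their controls (log2 -1.83, limma adjusted p = 0.012), Nt5e at 0.882 and 0.983 against 7.32 and 5.78 (-2.29, adjusted p = 0.0156), and Slc28a2 at 41.0 and 42.6 against 98.2 and 86.0 (-1.13, adjusted p = 0.0238). These 3 purine genes were therefore lower in the SMAD4 iKO libraries than in their controls too. The iKO and control libraries also differ in treatment, and the part of treatment in these values was not tested. Cldn4 stood at 11.5 and 12.9 against 28.7 and 22.2, short of the threshold (-1.02, adjusted p = 0.0563), Slc23a4 at 20.1 and 18.9 against 52.5 and 50.7 (-1.38, adjusted p = 0.0163), and Gprc5a at 16.3 and 11.5 against 16.3 and 11.3, with overlapping groups (0.014).

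In the SMAD1/5 table at day 6, 23.2% of 11142 genes passed, 15.1% higher and 8.1% lower. There the 3 iDKO and 3 control libraries overlapped for Nt5e (17.0, 20.5 and 10.2 against 20.5, 14.4 and 18.6 FPKM, log2 -0.21, limma adjusted p = 0.572). Ada stood at 1153, 1549 and 1003 in iDKO and 794, 1238 and 622 in controls (0.52, adjusted p = 0.214), and Cldn4 at 77.1, 80.3 and 66.0 against 76.1, 83.6 and 86.1 (-0.14, adjusted p = 0.358). No fall in these genes was called in iDKO at day 6. Whether the response to SMAD4 loss and the response to SMAD1 and SMAD5 loss differ was not tested, since the tables were normalised separately.

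Pmepa1 was higher after either deletion at day 6. It stood at 21.4, 26.8 and 28.4 FPKM in iDKO against 3.58, 3.99 and 3.77 in controls (log2 2.596, limma adjusted p = 1.5e-04) and at 6.83 and 7.27 in SMAD4 iKO against 3.05 and 2.58 (1.19, adjusted p = 0.0367). Smad6 stood at 1.12, 1.013 and 0.660 in iDKO against 6.20, 8.17 and 7.55 (-2.45, adjusted p = 4.9e-04) and at 0.520 and 0.247 in SMAD4 iKO against 6.09 and 10.5 (-3.29, adjusted p = 0.0175), low in both. Anxa10 was high in both (3.98 and 5.33), as were Capn2 (2.47 and 1.30) and Krt7 (1.73 and 0.94), all past the threshold. Lama3 was higher in iDKO (0.74, adjusted p = 0.0177) and lower in SMAD4 iKO (-1.78, adjusted p = 0.035). Ctrb1 at day 6 stood at 18.9, 7.92 and 19.3 in iDKO and 0.161, 0.209 and 9.52 in controls, overlapping, since 1 control held it too.

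Counted over the 65 genes lower in iTKO than in iDKO, 63 were tested in iDKO against control at day 6, where 43 were higher and 2 lower, with a median log2 of 1.061. Over the 10637 genes tested in both tables, 15.2% were higher and 8.2% lower, with a median of 0.186. The 65 include genes, Ctrb1 and Bdh2 among them, that passed the day 30 filter only through the iDKO libraries, in which they were high. Bdh2 was among the 43 (log2 1.68, limma adjusted p = 0.00156) and Ctrb1 was not (3.14, adjusted p = 0.0679). The count at day 6 was not repeated without such genes. Of the 26 genes higher in iTKO, 26 were tested there, 0 were higher and 19 lower, with a median of -1.377. In SMAD4 iKO at day 6, 54 of the 65 were tested, 5 higher and 7 lower, with a median of 0.052. The 7 include Smad4, the deleted gene itself, whose fall there was fixed in advance. Of the 26 higher in iTKO, 26 were tested there, 0 higher and 12 lower, with a median of -0.875. Over the 10751 genes tested in both, 1.29% were higher and 2.2% lower there. The plot against other animals shows these values gene by gene. Among the genes that rose, Slc2a7 had log2 -3.86 in iDKO and -1.88 in SMAD4 iKO at day 6, Unc93a2 -3.34 and -1.45, Slc5a11 -2.49 and -2.02, Dpp4 -1.92 and -1.42, and Aspa -4.07 and -2.93, all past the threshold. Afp had -0.083 and -0.15, past it in neither.

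**Figure D4:**
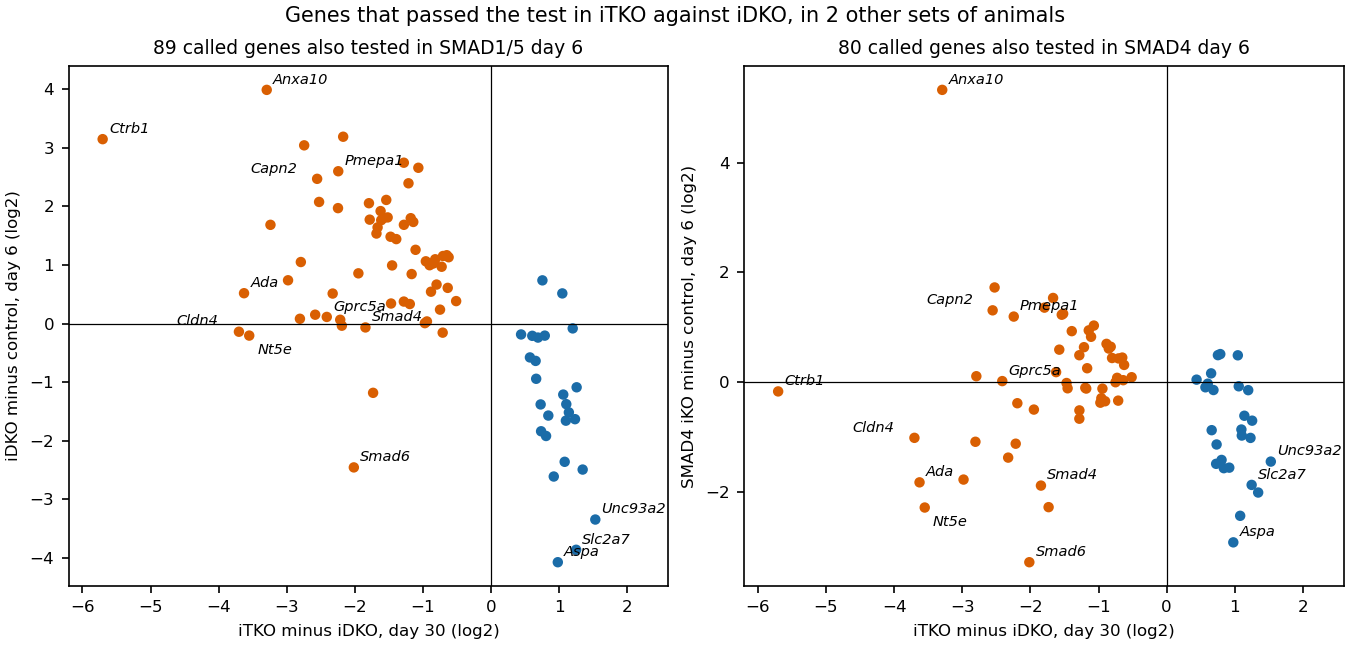
Log2 change at day 6 (y axes) in SMAD1/5 iDKO against control (left, 89 genes) and SMAD4 iKO against control (right, 80 genes), against the log2 difference of iTKO minus iDKO at day 30 (x axes), for genes that passed in the latter. Orange points were lower and blue points higher in iTKO. Most orange points lie above 0 on the left, while on the right Ada, Nt5e, Cldn4 and Smad6 lie below 0 and Anxa10 well above it; most blue points lie below 0 in both panels.

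Promoters of the called genes were searched on both strands for 4 motifs, in the windows described above. RefSeq held a window for 24 of the 26 higher genes, 47 of the 65 lower genes and 9323 of the 11939 genes tested, and Pmepa1 was not among them. GGCGCC, the BMP SMAD element, lay in 3 of the higher promoters (12.5%) and 14 of the lower (29.8%), against 24.1% of all. The SMAD box CAGAC lay in 62.5% of the higher and 63.8% of the lower, against 52.4% of all. CAAAGTCCA, a core motif of the enterocyte factor HNF4, lay in 1 higher and 1 lower promoter (4.17% and 2.13%), against 0.644% of all. These are descriptions of the letters in short windows, with no test.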

How the data were processed

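RNA was poly(A)-enriched and sequenced as paired ends, per the labels' protocols. Reads were processed with HISAT2 2.2.1 and featureCounts 2.0.1 per the submitters' processing notes, which name both GRCm39 and mm10 and not which table used which. The authors deposited FPKM values per gene, which are not counts, and the step from counts to FPKM is not given in the sources used here. Differences were fitted with limma 3.58.1 (R 4.3.3, eBayes with trend) on log2(FPKM + 0.5); p-values were adjusted over all genes tested by Benjamini-Hochberg and called under 0.05. All 10 day 30 libraries entered 1 fit as 3 groups, with 7 residual degrees of freedom, and genes needed 1 FPKM in 2 libraries, which left 11939 of 15653. Each other table was fitted alone, since tables were normalised separately. On simulated data for iTKO against iDKO over 11939 genes, 66% of 100 genes changed 2-fold and 96% of 100 changed 4-fold were recovered, with 8 false calls. The simulation drew independent normal noise for each gene, without differences between whole libraries or sexes. These rates need not hold for the libraries used here, where the iDKO libraries differ in many genes at once.

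Named genes were the targeted genes, then the 10 largest rises and 10 largest falls past the threshold with libraries that do not overlap and a mean of at least 5 FPKM in the higher group, predicted genes left out, then up to 4 members of each list by adjusted p. Where a list had none past the threshold, its 2 highest in mean FPKM could be named, and every tested member of the SMAD, BMP response and TGF-beta response lists. The members and lists were chosen with earlier results of these data known. The day 6 SMAD1/5 comparison was added after the data were seen. Replicate numbers were not taken as pairs, since the numbers are shared labels only. Same-numbered iDKO and iTKO libraries had residual correlations of -0.262 and -0.312. With 2 iDKO libraries the residuals of one mirror those of the other, so these values cannot decide on pairing. Alternatives changed the pseudocount, filter, scaling, variance model, grouping of controls, block, sex and each library in turn. Promoter sequences are from RefSeq, GRCm38.p6. Summaries used pandas 2.3.3 and numpy 2.4.6 under Python 3.11.15, and plots matplotlib 3.10.9. Values of 1 of the genes past the threshold, and of a list it belongs to, are not reported here.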

Additional observations from a re-analysis of the deposited data

Results flagged for a closer look

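By limma's interaction contrast, iTKO against its line controls and iDKO against its line controls differed in 7 genes. The controls of the 2 lines also differ in treatment and in Cre, so the contrast does not isolate the loss of SMAD4. The differences in log2 were -2.51 for Pmepa1 (adjusted p = 0.00222), -3.16 for Ada (0.0104), -2.48 for Gprc5a (0.0104), -5.76 for Ctrb1 (0.0104), -1.98 for Gm19680 (0.0264), -1.47 for Tlcd2 (0.0264) and -1.81 for Smad4 (0.0301). All 7 were lower in iTKO than in iDKO relative to their own controls. Ctrb1 passed the filter only through the iDKO libraries, the group in which it was high, so its adjusted p adds no support.

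Among the 5 controls at day 30, 1 library, not the same in each gene, stood far from the other 4 in 10 named genes. Chance alone marks about 1 in 20 groups. Of the 128 named genes, sex-linked ones and those under 1 FPKM in every control were left out of this check. The outlying values were 952 FPKM for Ada, 19.0 for Tgif1, 765 for Dpp4, 2.65 for Clu, 697 for Car4, 341 for Pgd, 10131 for Defa24, 5579.6 for Lyz1, 253 for Gip and 23.8 for Trpm5. The Ada value is the highest control and the Dpp4 value the lowest, and neither library enters the difference between iTKO and iDKO other than through the shared estimate of the spread.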

How the results depend on the processing

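All 91 genes kept their direction in each of the 24 alternatives in which they were tested. Except under the scaling, block, sex and within-line settings this was fixed in advance, since the iDKO and iTKO libraries did not overlap in these genes. List medians could change sign. Those of interferon response, lipid absorption, goblet and enteroendocrine genes were -0.44, 0.16, -0.17 and -0.17 without iDKO 2. They were 0.76, -0.16, 0.19 and 0.18 without iDKO 1. Of iTKO against iDKO (26 higher, 65 lower), the count higher was 13 without the trend in limma. The counts were 6 and 23 in a fit of the 5 compared libraries alone, 0 and 7 for the within-line difference and 57 and 107 with sex as a covariate, and they ranged from 0 to 151 higher and 18 to 156 lower when each library was left out. With the replicate block they were 1 and 7. The cause of these shifts was not tested, except that the fit of 5 libraries has fewer samples. The within-line difference (0 and 7) gave 2 and 12 with sex as a covariate, 13 lower with a robust prior, and 0 to 9 higher and 2 to 25 lower with libraries left out. iDKO against control (1126 and 1112) gave 367 and 379 with the replicate block and 466 to 1137 and 429 to 1088 with libraries left out. iTKO against control (1090 and 1069) gave 408 and 490 with the block and 593 to 1141 and 653 to 1098 with libraries left out. SMAD4 iKO at day 6 (156 and 261) gave 98 and 135 without a filter, 314 and 520 with the block, and 8 to 121 and 29 to 126 with libraries left out, where the lone library of a group is assumed to vary like the other group. Numbers are shared labels only. Residual correlations of crossed iDKO and iTKO libraries (0.312 and 0.262) mirror those of same-numbered ones by construction and cannot decide on pairing. Of gene values under alternatives, called and other named genes together, 3782 stayed on their side of the threshold, 659 fell short of it and 16 came past it. Only called genes could fall short, so the pooled count makes the calls look steadier than they were. With 2 iDKO libraries, modest changes could be missed, and for SMAD4 iKO and its controls depth is unknown.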
